A study of Homo sapiens with 8 samples.

Results

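Glutamine uptake and use were followed through 9 genes: SLC1A5, GLUL, GFPT1, ASNS, GLUD1, GOT1, GOT2, GPT2 and OAT. They were chosen by name, with earlier results of these data known. They are the carrier that brings glutamine into the cell and enzymes that make glutamine, take its amide nitrogen or pass its carbon on through glutamate. Every probe of each gene was taken over all 8 arrays. All 9 genes had a probe well above background on every array, among 10959 genes measured so and 22434 gene symbols on the array. They had 10 probes in all, and GFPT1 was the gene with more than 1. The question was whether SLC1A5 was the only one of these steps whose mRNA gained on AGO2 when miR-634 was present.

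Glutamine enters many tumor cells through ASCT2, the product of SLC1A5, and is converted to glutamate. Glutamate then loses its amino group to a dehydrogenase or an aminotransferase, and the 2-oxoglutarate that results feeds the tricarboxylic acid cycle. A miRNA guides AGO2 to mRNAs that pair with its seed, so mRNA that coprecipitates with AGO2 is read as bound, and pairing often lowers the mRNA or its protein.

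miR-634 is shown here because its seed sets which sites it can pair with. The mature human miRNA has 22 bases and is encoded on the plus strand at chr17:66787132-66787153 in GRCh38.p14, according to RefSeq. The capitals mark the seed, bases 2 to 8.
hsa-miR-634: aACCAGCAccccaacuuuggac
The letters that pair with this seed in an mRNA are UGCUGGU. Of 2370 mature human miRNA names in the table used, 1 holds this seed, so no other named miRNA there shares it. Sites in the mRNAs of the 9 genes were not analyzed here, so a higher signal in the RIP is a measurement of coprecipitation and not of a site.

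The cells were A431, an established human line of epidermoid (squamous) carcinoma. Either miR-634 or the negative control miR-NC was introduced at 10 nM, and lysates were made 24 h later. From each kind of cell, RNA coprecipitated with an antibody to AGO2 (RIP) and total RNA (input) were each hybridized on 2 one-color Agilent arrays, which gives 4 groups of 2. The labels of the input samples name a normal rabbit IgG antibody, whereas the design text and the methods call the input total RNA, and it is treated as total RNA here. The sources do not say whether the 2 arrays of a group came from separate transfections, so the p-values measure the spread between these arrays, which may be technical.

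All 7 markers of the line (EGFR, KRT5, KRT14, KRT17, TP63, CDH1 and SFN) were well above background on all 8 arrays. Of the markers of blood, endothelial and fibroblast cells given here, CD3E and PECAM1 were above it on none, DCN on at most 1 array, COL1A1 and PTPRC on at most 4, and VWF on all 8 with a dim probe. The probe of TP63 was also dim, with input levels (defined below) from 0.0468 to 0.0643, against 0.0147 to 0.0238 for VWF. The share of spots well above background ran from 45.6% to 45.8% for the input, was 40.0% on both arrays of the miR-634 RIP and was lowest for the miR-NC RIP, at 33.6% and 34.5%. All arrays shared 1 slide, with the input in its row 1 and the RIP in its row 2, so position and kind of RNA cannot be told apart. The miR-NC arrays took columns 1 and 2 and the miR-634 arrays columns 3 and 4, so position and miRNA cannot be told apart either. With 2 arrays in a group, precision is limited by the number of arrays.

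Levels below are processed intensities divided by the 75th percentile of the same array, taken over the probes well above background on all 8 arrays. Enrichment is the RIP level over the input level, and the change of enrichment is the enrichment in miR-634 cells over that in miR-NC cells. Each change was tested by limma over all measured genes, and a gene is called when its Benjamini-Hochberg adjusted p was under 0.05. These levels are relative within an array, and the median gene had a log2 change of enrichment of -0.22, so a gene with no change stands above the median gene.

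SLC1A5 was the uptake step and was read by 1 probe (NM_005628). Its level was 0.928 and 0.900 in the miR-NC input and 0.580 and 0.516 in the miR-NC RIP. It was 0.705 and 0.683 in the miR-634 input and 2.78 and 3.07 in the miR-634 RIP. Both RIP arrays were thus below both input arrays in miR-NC cells and above both in miR-634 cells. Of all genes, 8.47% were called lower than the input in miR-NC cells and higher in miR-634 cells. The RIP stood at 0.598 of the input in miR-NC cells (log2 -0.74, standard error 0.08, limma, adjusted p = 0.000127) and at 4.21-fold the input in miR-634 cells (log2 2.07, standard error 0.08, limma, adjusted p = 7.43e-07). The change of enrichment was 7.04-fold (log2 2.82, standard error 0.11, limma, adjusted p = 3.06e-06). The rise lay in the RIP, which rose by 2.42 on the log2 scale (adjusted p = 7.90e-07). The input fell by 0.40 (adjusted p = 0.0141), and this fall was no longer called when any 1 of the 4 input arrays was left out (log2 from -0.42 to -0.37, adjusted p from 0.0624 to 0.0875) or with no filter on dim probes (0.0809).

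**Figure D1:**
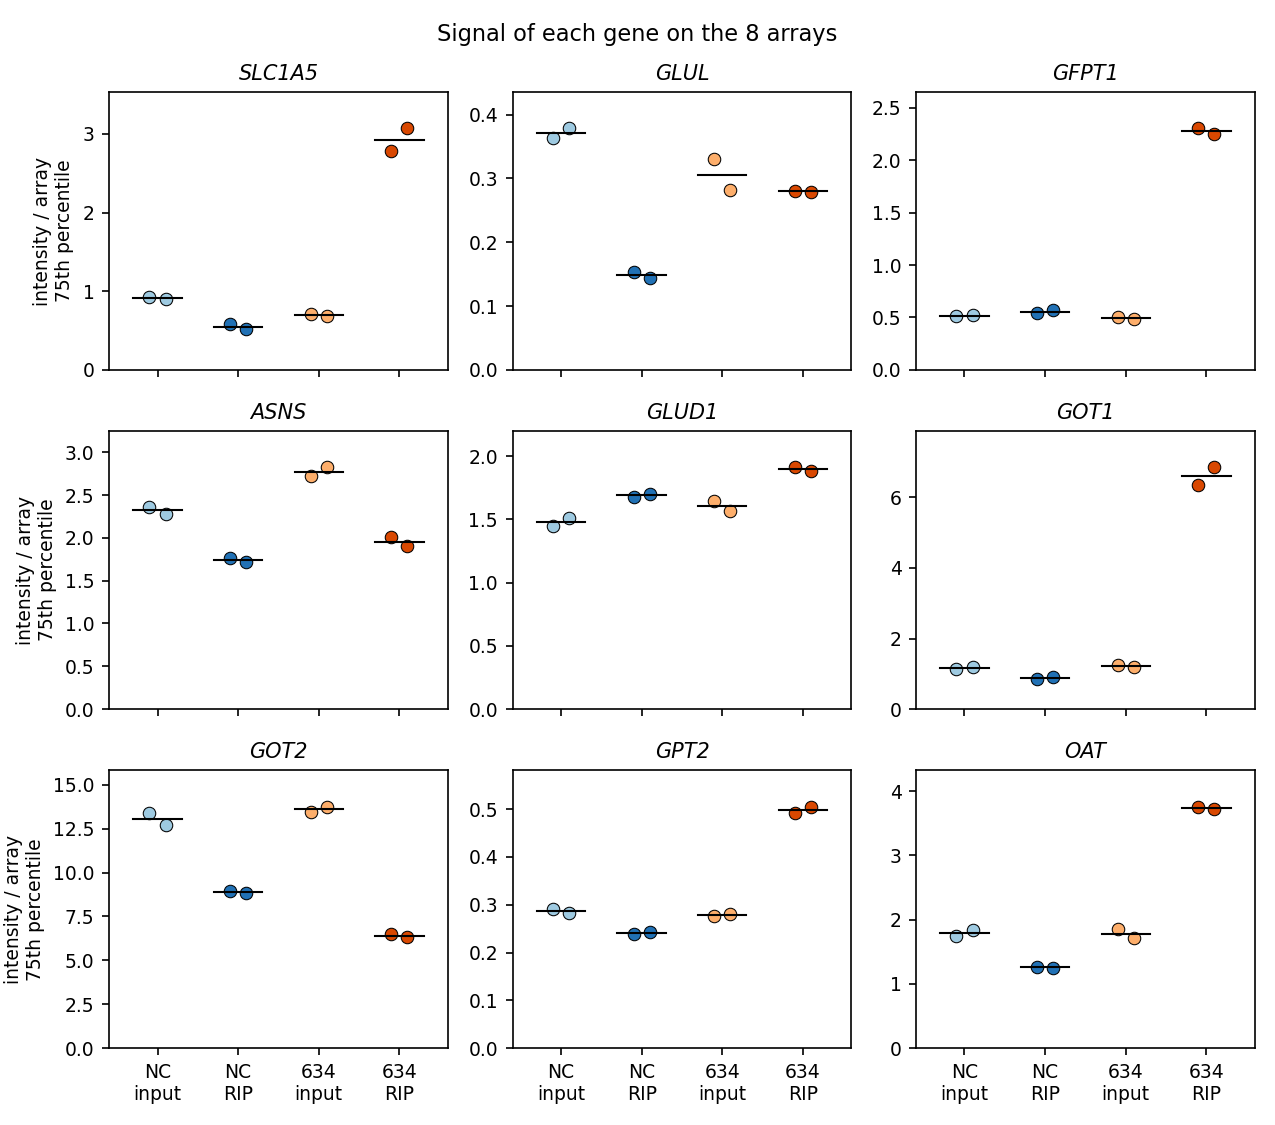
Level of each gene on each array, as processed intensity over the array's 75th percentile (vertical axis, from 0, with its own scale for each gene), in the input and RIP of miR-NC and miR-634 cells. Points are arrays and bars are the mean of the 2 arrays. For SLC1A5 the miR-634 RIP arrays, at 2.78 and 3.07, stand above the other 6, as they also do for GFPT1, GLUD1, GOT1, GPT2 and OAT. The RIP rise of GLUD1 was small (log2 0.17). The share of all genes with this separation was not counted, and limma called 30.9% of all genes higher in the RIP of miR-634 cells.

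GLUL encodes glutamine synthetase, which makes glutamine from glutamate and ammonia. Its level (NM_002065) was 0.363 and 0.379 in the miR-NC input but 0.153 and 0.144 in the miR-NC RIP, so that the RIP stood at 0.401 of the input, the lowest ratio among the 9 genes in miR-NC cells. In miR-634 cells it was 0.331 and 0.282 in the input and 0.280 and 0.279 in the RIP. The RIP thus came up to about the input level, at 0.917 of it, a difference that did not pass the test (adjusted p = 0.191, 95% interval of log2 from -0.32 to 0.07). GLUL had a change of enrichment of 2.29-fold (log2 1.19, standard error 0.11, adjusted p = 0.000147), the RIP rose by 0.91 on the log2 scale (adjusted p = 7.02e-05), and the input changed by -0.28 (adjusted p = 0.0513). The input change was called without the miR-634 input array numbered 1 (log2 -0.40, adjusted p = 0.0283), with quantile normalization, with normexp and quantile normalization and with an intensity trend. Without the miR-634 input array numbered 2, the RIP of GLUL was called lower than the input in miR-634 cells (log2 -0.24, adjusted p = 0.0197).

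GFPT1 and ASNS use the amide nitrogen of glutamine. GFPT1 catalyzes the first committed step of hexosamine synthesis, and its brighter probe (NM_001244710) had levels of 0.515 and 0.520 in the miR-NC input, 0.543 and 0.570 in the miR-NC RIP, 0.505 and 0.486 in the miR-634 input, and 2.30 and 2.25 in the miR-634 RIP. The first 3 of these groups were close together, and the miR-634 RIP stood apart. For GFPT1, the enrichment rose 4.28-fold (log2 2.10, standard error 0.07, adjusted p = 1.70e-06). The RIP was 4.60-fold the input in miR-634 cells, and the input changed by -0.06 on the log2 scale (adjusted p = 0.380).

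The other GFPT1 probe, for the same accession, was dim and was not well above background on either miR-NC RIP array. For this probe the RIP rose at least 1.34-fold and the enrichment at least 1.28-fold, against the higher of the probe's own level and the lowest level among probes well above background on each array. Its RIP in miR-634 cells was 0.569 of its input, whereas that of the brighter probe was above the input. Both GFPT1 probes thus had a RIP signal that was higher with miR-634 than with miR-NC, and they disagreed on whether the RIP exceeded the input in miR-634 cells. The fold change and the rank given for GFPT1 rest on the brighter probe alone, and the other probe gives only a lower bound for the rise.

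ASNS encodes asparagine synthetase. Its level (NM_001673) was 2.37 and 2.29 in the miR-NC input, 1.77 and 1.71 in the miR-NC RIP, 2.73 and 2.82 in the miR-634 input, and 2.01 and 1.90 in the miR-634 RIP. Input and RIP were both higher in miR-634 cells, by log2 0.25 (adjusted p = 0.0168) and 0.17 (adjusted p = 0.0224), and the ratio between them changed little. The change of enrichment was 0.941-fold (95% interval from 0.833 to 1.06, limma, adjusted p = 0.318) and was not called. The rise of the input was not called when any 1 of the 4 input arrays was left out (adjusted p from 0.0616 to 0.104). With scaling on the spike-in probes, the log2 input change was 0.03 and the log2 change of enrichment was 1.004 (adjusted p = 0.00104).

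Of the 5 enzymes that take the amino group from glutamate or yield glutamate in the reverse reaction, GOT1 had the largest change. GOT1 is the cytosolic aspartate aminotransferase. Its level (NM_002079) was 1.14 and 1.19 in the miR-NC input and 0.865 and 0.903 in the miR-NC RIP, and it was 1.25 and 1.20 in the miR-634 input and 6.35 and 6.85 in the miR-634 RIP. The 2 miR-634 RIP arrays stood far above the other 6, while the input arrays of the 2 kinds of cells lay close together. The change of enrichment was 7.13-fold (log2 2.83, standard error 0.08, adjusted p = 1.32e-06), from 0.758 of the input in miR-NC cells to 5.40-fold the input in miR-634 cells. The RIP rose by 2.90 on the log2 scale (adjusted p = 2.04e-07), and the input changed by 0.07 (adjusted p = 0.455).

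GOT2, the mitochondrial form of the same aminotransferase, went the other way. Its level (NM_002080) was 13.4 and 12.7 in the miR-NC input, 8.93 and 8.85 in the miR-NC RIP, 13.4 and 13.8 in the miR-634 input, and 6.51 and 6.32 in the miR-634 RIP. The RIP was below the input in both kinds of cells, and further below it in miR-634 cells, at 0.472 of the input against 0.682. Its enrichment changed 0.692-fold (log2 -0.53, standard error 0.07, adjusted p = 0.000507), where the median gene was at 0.861-fold. Scaling on the spike-in probes, which adds the same amount to the log2 value of every gene, put it at 0.56 (adjusted p = 0.0716), below the median gene at 0.88.

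OAT encodes ornithine aminotransferase, which links glutamate metabolism with ornithine. Its level (NM_000274) was 1.75 and 1.84 in the miR-NC input, 1.26 on each miR-NC RIP array, 1.85 and 1.71 in the miR-634 input, and 3.76 and 3.72 in the miR-634 RIP. Its enrichment rose 2.997-fold (log2 1.58, standard error 0.08, adjusted p = 8.24e-06), and its input changed by -0.01 (adjusted p = 0.919). The RIP of OAT passed from 0.701 of the input in miR-NC cells to 2.10-fold the input in miR-634 cells, although with scaling on the spike-in probes it stayed below the input in miR-634 cells (log2 -0.40, adjusted p = 0.0511).

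GPT2, the mitochondrial alanine aminotransferase, had a smaller change of the same kind. Its level (NM_133443) was 0.290 and 0.282 in the miR-NC input, 0.239 and 0.244 in the miR-NC RIP, 0.277 and 0.281 in the miR-634 input, and 0.492 and 0.506 in the miR-634 RIP. The change of enrichment was 2.12-fold (log2 1.08, standard error 0.06, adjusted p = 1.53e-05). The RIP was 1.79-fold the input in miR-634 cells, but below it with scaling on the spike-in probes (log2 -0.64, adjusted p = 0.00196).

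GLUD1 encodes glutamate dehydrogenase, which releases the amino group of glutamate as ammonia. Its level (NM_005271) was 1.45 and 1.51 in the miR-NC input, 1.67 and 1.70 in the miR-NC RIP, 1.65 and 1.57 in the miR-634 input, and 1.91 and 1.88 in the miR-634 RIP. It was the gene of the 9 that was called higher in the RIP than in the input already in miR-NC cells (1.14-fold, adjusted p = 0.0105), and it stood at 1.18-fold in miR-634 cells (adjusted p = 0.00335). Spike-in scaling put both of these ratios below 1, with log2 values of -2.38 and -1.24. In miR-NC cells GFPT1 was also called higher with median scaling, quantile normalization alone or centering on the median gene. The limma call of GLUD1 there was lost with the authors' values (adjusted p = 0.0810) and with the percentile over all probes (0.0804). It was also lost without the miR-NC input array numbered 1 (0.0735). The change of enrichment was 1.03-fold (95% interval from 0.920 to 1.16, adjusted p = 0.555), which was not called, although it was called when each contrast was centered on the median gene (log2 0.26, adjusted p = 0.0148) or scaled on the spike-in probes (log2 1.14).

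**Figure D2:**
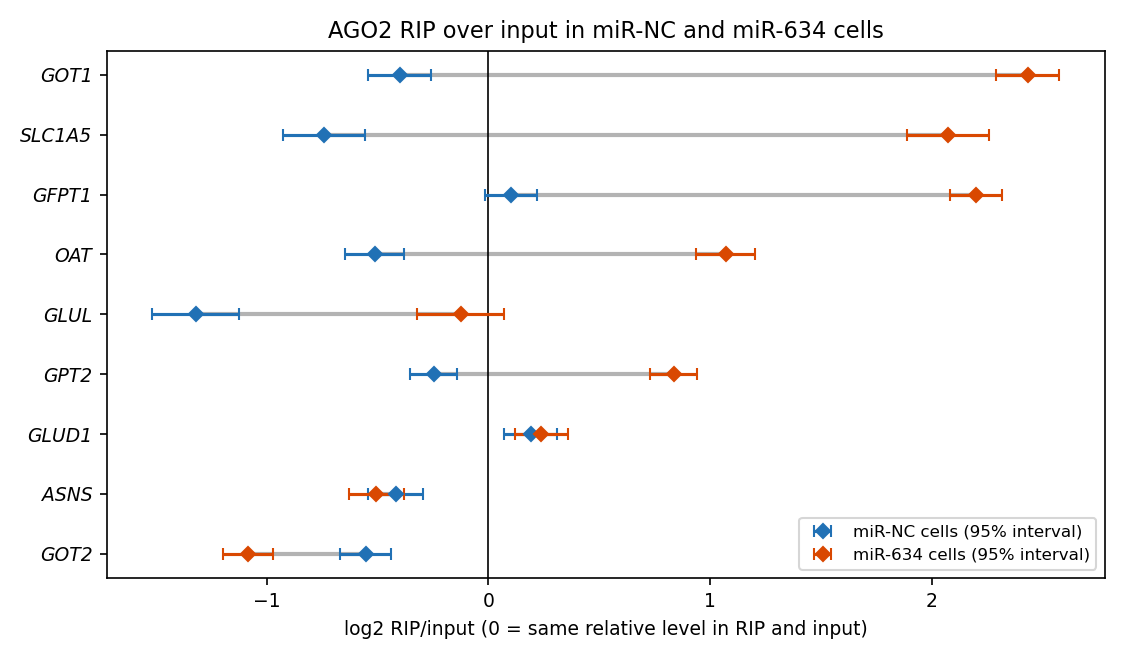
Log2 of the RIP level over the input level (horizontal axis) in miR-NC and miR-634 cells for each gene; diamonds are the differences of the group means (2 arrays each) and bars are 95% intervals from limma. SLC1A5, GOT1, OAT and GPT2 crossed from below to above 0, GFPT1 started near 0, GLUL came up to about 0, GLUD1 and ASNS moved little and GOT2 moved down; with scaling on the spike-in probes OAT, GPT2 and GLUD1 were below 0 in miR-634 cells.

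Over the 9 genes, enrichment rose for 6 (SLC1A5, GOT1, GFPT1, OAT, GLUL and GPT2) and fell for 1 (GOT2), and 2 (ASNS and GLUD1) were not called. Over all measured genes, limma called 28.1% higher and 43.2% lower. The 6 genes rose by at least 2-fold, as did 13.2% of all measured genes. The median log2 change of enrichment of the 9 genes was 1.19, against -0.22 over all genes. Because the 9 genes were chosen with earlier results of these data known, these counts and this median are descriptive. The 6 rises were called under each of the 20 alternatives run, with fold changes from 6.52 to 14.99 for SLC1A5, from 6.74 to 15.2 for GOT1, from 3.93 to 9.12 for GFPT1, from 2.74 to 6.38 for OAT, from 2.02 to 4.88 for GLUL and from 1.88 to 4.51 for GPT2. The highest of each range came from spike-in scaling, which moved the median gene to log2 0.88. Other filters, averaging the probes, the intensity trend and the replicate block left the fold changes of these genes as reported and could change only their calls. The dim GFPT1 probe did not enter the value of GFPT1 in any alternative.

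In miR-NC cells, the RIP was lower than the input for 7 of the 9 genes, higher for GLUD1 and not called for GFPT1, where 45.3% of all genes were lower and 33.5% higher. In miR-634 cells, the RIP was higher than the input for SLC1A5, GOT1, GFPT1, OAT, GPT2 and GLUD1, lower for ASNS and GOT2, and not called for GLUL, where 36.1% of all genes were higher and 48.3% lower. Lower than the input in miR-NC cells and higher in miR-634 cells were 4 of the 9 genes (SLC1A5, GOT1, OAT and GPT2), against 8.47% of all genes. With normexp and quantile normalization, GPT2 was no longer called lower than the input in miR-NC cells (log2 -0.12, adjusted p = 0.0645). With scaling on the spike-in probes, SLC1A5, GOT1 and GFPT1 were the 3 genes still above the input in miR-634 cells, with log2 values of 0.60, 0.96 and 0.73, where the median gene was at -1.65.

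The 2 parts of the ratio behaved differently. The RIP level rose for 8 of the 9 genes and fell for GOT2, where 30.9% of all genes rose and 46.5% fell. Among the 8, the rises of ASNS and GLUD1 were small, each log2 0.17, and that of GLUD1 was lost without the miR-NC RIP array numbered 1 (adjusted p = 0.0648) or the miR-634 RIP array numbered 1 (0.0611), and with no filter on dim probes (0.0507). That of ASNS was lost without the miR-NC RIP array numbered 2 (0.0849) or the miR-634 RIP array numbered 1 (0.0927), with no filter (0.0573) and with quantile normalization, alone (0.0693) or after normexp (0.124). The fall of GOT2 in the RIP (log2 -0.47, adjusted p = 0.000126) had a log2 value of 0.39 with scaling on the spike-in probes. The input level rose for 1 gene (ASNS), fell for 1 (SLC1A5) and was not called for 7, where 11.6% of all genes rose and 12.1% fell. Whether the input change of SLC1A5 differed from that of GLUL (log2 -0.40 and -0.28) was not tested. Without the miR-634 input array numbered 1, GLUL was called lower in the input (adjusted p = 0.0283) and SLC1A5 was not (0.0630).

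**Figure D3:**
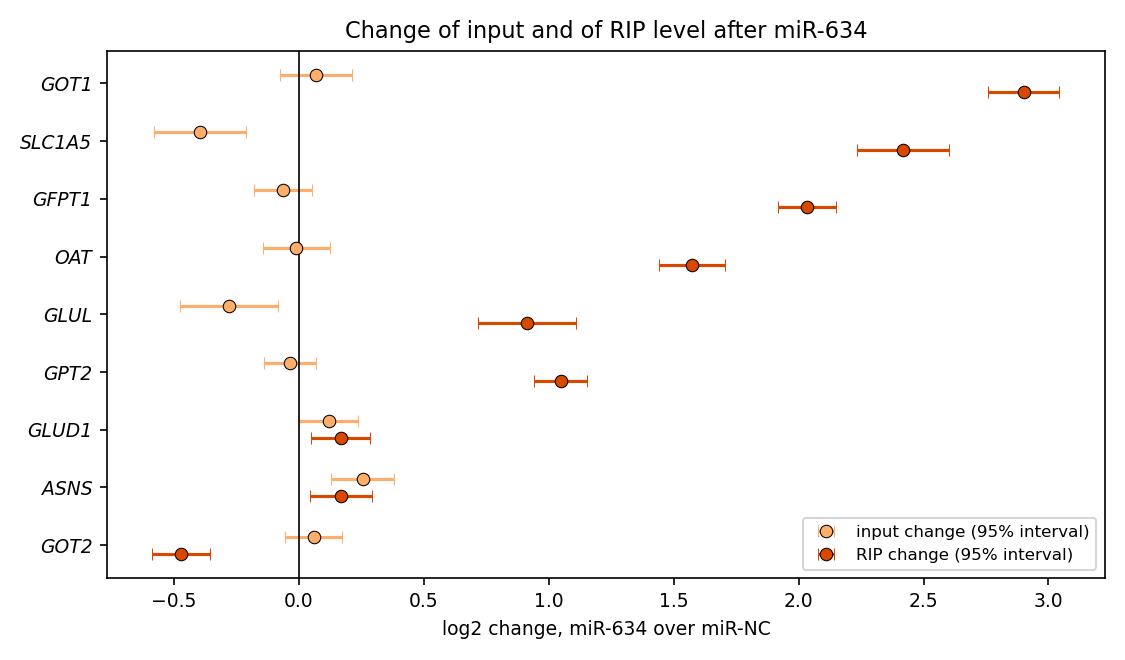
Log2 change from miR-NC to miR-634 cells (horizontal axis) of the input level and of the RIP level of each gene, with 95% intervals from limma. The input changes lie between -0.40 and 0.25, and the RIP changes reach 2.90 for GOT1 and 2.42 for SLC1A5; that of GOT2, at -0.47, was 0.39 with scaling on the spike-in probes.

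SLC1A5 was next compared with each of the other 8 genes directly. The log2 level of SLC1A5 was subtracted from that of each gene on the same array, so a shift of a whole array cancels, and the change of enrichment of this difference was tested by limma over 10958 genes. GOT1 differed from SLC1A5 by 0.02 on the log2 scale, with a 95% interval from -0.33 to 0.36 (adjusted p = 0.913). A difference of that size either way was not resolved by 2 arrays per group, and the adjusted p was between 0.359 and 0.997 under the alternatives. The other 7 genes had a lower change of enrichment than SLC1A5, as had 98.1% of all genes, while 0.493% had a higher one. The change of SLC1A5 was 1.64-fold that of GFPT1 (adjusted p = 0.000948), 2.35-fold that of OAT (5.29e-06), 3.08-fold that of GLUL (3.14e-07) and 3.32-fold that of GPT2 (1.11e-07). It was 6.81-fold that of GLUD1, 7.48-fold that of ASNS and 10.2-fold that of GOT2. These 7 calls held under all 20 alternatives, with a highest adjusted p of 0.00651 for GFPT1. Scalings that shift a whole array could not change these differences, so the agreement under them was fixed in advance. Averaging the probes left the values of these genes unchanged. All these tests share the values of SLC1A5, so they are not independent of each other. The moderated variances were pooled over genes that all hold the same SLC1A5 values. The intervals may therefore be too narrow and the adjusted p-values too small.

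Among all 10959 genes ordered by change of enrichment from the highest, GOT1 was at rank 105 and SLC1A5 at rank 110, and their neighborhood in the order is not resolved. GFPT1 was at rank 383, OAT at 751, GLUL at 1170 and GPT2 at 1313. GLUD1 was at rank 4067, ASNS at 4773 and GOT2 at 7572. Relative to the median gene, the change of enrichment was 8.27-fold for GOT1, 8.17-fold for SLC1A5 and 0.804-fold for GOT2.

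**Figure D4:**
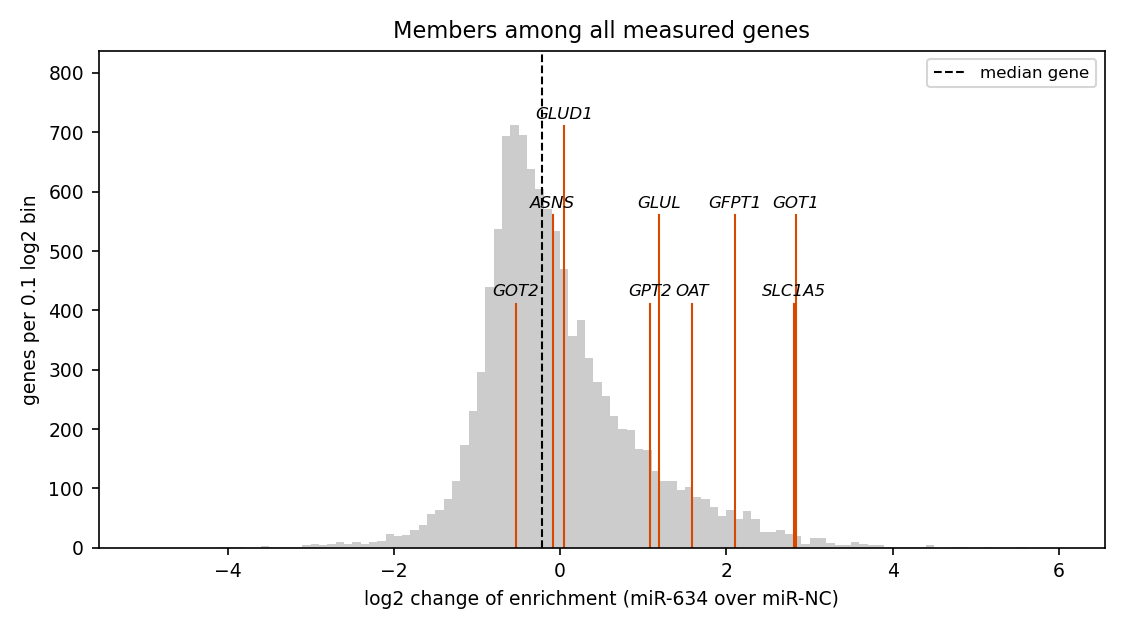
Number of genes in each bin of 0.1 (vertical axis) by log2 change of enrichment (horizontal axis) over the 10959 measured genes, with the 9 genes as labeled lines and the median gene, at -0.22, as a dashed line. SLC1A5 and GOT1 share a place in the upper tail, and GOT2 lies to the left of the median gene.

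The genes whose levels over the 8 arrays were most like those of SLC1A5, after the mean of each gene was removed, were SRSF2, TKFC, EHMT2, TRAPPC5 and TSPO. Their root mean square differences from SLC1A5 were 0.0720, 0.0728, 0.0861, 0.118 and 0.118 on the log2 scale, where the median over 10958 genes was 1.08. The nearest of the other 8 genes were GOT1 (0.302, rank 237), GFPT1 (0.311, rank 254) and OAT (0.387, rank 429). GOT1 was close to SLC1A5 in change of enrichment and less so in profile, and the log2 input change was 0.07 for GOT1 and -0.40 for SLC1A5.

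Other genes of glutamine and glutamate metabolism were taken from a list of 46, of which 40 were measured. The list was also written with earlier results of these data known, so its counts are descriptive. Enrichment rose for 22, fell for 7 and was not called for 11, with a median log2 change of 0.45, and 13 rose by at least 2-fold. Over all measured genes 28.1% rose, 43.2% fell and 13.2% rose by at least 2-fold, with a median of -0.22, and these are also the shares to set beside the counts by class below. Under spike-in scaling the 7 falls lost their call by limma, 34 of the 40 genes were higher, the other 6 were not called, and the median was 1.54, where 7220 of all 10959 genes were higher and 179 lower, with a median of 0.88. The input rose for 3 of the 40 and fell for 9, where 11.6% of all genes rose and 12.1% fell.

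Of 9 measured transport genes, 6 rose in enrichment and 3 were not called, and the rises were led by SLC38A5, a glutamine carrier of another family (2.78-fold, adjusted p = 2.69e-05). Of the 4 hexosamine genes downstream of GFPT1, 3 rose, among them UAP1, which makes UDP-N-acetylglucosamine (5.26-fold, adjusted p = 5.19e-06), and PGM3 (4.49-fold, adjusted p = 4.83e-06). The input of UAP1 fell by 0.37 on the log2 scale (adjusted p = 0.0168), and that of PGM3 changed by 0.02 (adjusted p = 0.843).

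Among 9 other genes that use or make glutamate, 5 rose and 2 fell. PSAT1, the phosphoserine aminotransferase of serine synthesis, rose 3.74-fold (adjusted p = 0.000363). ALDH4A1, which yields glutamate from proline breakdown, rose 3.01-fold (adjusted p = 3.19e-05) by its brightest probe, but the mean of its probes gave a log2 change of 0.27. Its rise was called in 19 of the 20 alternatives. PYCR3, a proline-forming reductase, fell (log2 -0.52, adjusted p = 0.000729). For 7 other users of the amide nitrogen, 4 rose and 1 fell, namely CTPS2, a CTP synthase (log2 -0.57, adjusted p = 0.00081).

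Of 7 genes of 2-oxoglutarate and malate steps, 2 rose and 2 fell. DLST, a subunit of the 2-oxoglutarate dehydrogenase complex, rose 3.10-fold (adjusted p = 3.88e-06). MDH2, the mitochondrial malate dehydrogenase, fell (log2 -1.07, adjusted p = 2.27e-05). Of the 3 genes of glutathione synthesis 1 rose, and both subunits of glutamate-cysteine ligase fell, GCLC by 0.52 on the log2 scale (adjusted p = 0.00884) and GCLM by 0.51 (adjusted p = 0.0291). The fall of GCLM was called in 10 of the 20 alternatives. With scaling on the spike-in probes, the log2 values of MDH2, CTPS2, PYCR3, GCLC and GCLM lay between 0.03 and 0.58, none of them called, where the same amount was added to every gene.

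**Figure D5:**
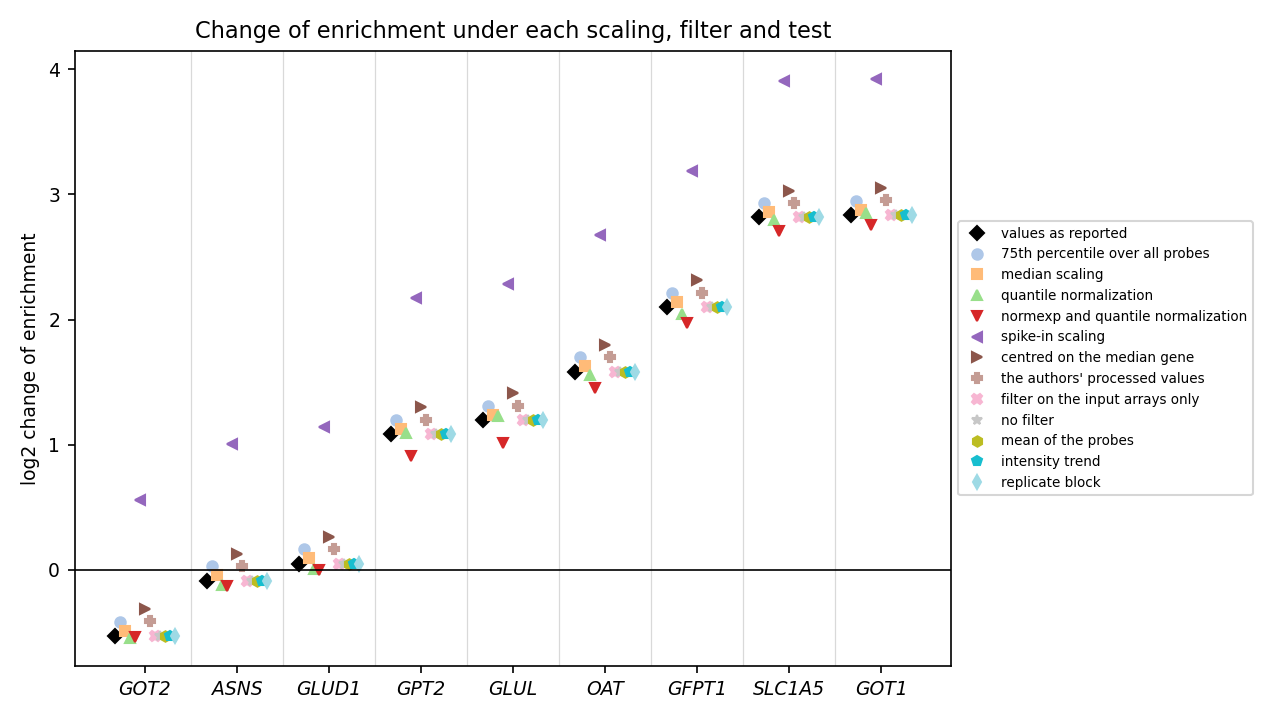
Log2 change of enrichment (vertical axis) of the 9 genes as reported and under each scaling, filter and test tried. SLC1A5, GOT1, GFPT1, OAT, GLUL and GPT2 stayed above 0 in each, and spike-in scaling raised every gene by the same amount, which put GOT2 at 0.56 and ASNS at 1.004.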

How the data were processed

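RIP and input RNA of A431 cells with miR-NC or miR-634 was measured on 8 arrays, 2 per group, with groups taken from the sample labels. The authors deposited the processed intensity of each spot from Agilent Feature Extraction (version 12.0.1.1 in the file headers), with the local background subtracted and no normalization between arrays. The authors also deposited log2 values processed with GeneSpring, which had a correlation of at least 0.999997 with the log2 intensities of this work after each array's 75th percentile (all probes) and then each probe's median were subtracted. Their column medians ran from -0.44 to 0.88, and they were used as an alternative.

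Control and outlier spots were removed, repeated spots were averaged per probe and the values were log2-transformed. Saturated spots numbered 0. Of 58179 probes used, 16808 were well above background on all 8 arrays, and these set the 75th percentile that was subtracted from each array. RefSeq accessions were given for 33069 probes, and RefSeq tables named 31094 of them. The brightest probe that passed on all arrays stood for a gene. Gene coordinates are not given, because the design uses hg19. Changes were tested with limma 3.58.1 under R 4.3.3, fitted to the means of the 4 groups with moderated variances, two-sided, with p-values adjusted by Benjamini-Hochberg across the measured genes and a threshold of 0.05. The median SD of log2 values between the arrays of a group was 0.04 in each input and 0.06 in each RIP group. Scripts were tested on simulated data. Python 3.11.15 with pandas 2.3.3 prepared the tables, and matplotlib 3.10.9 drew the figures.

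The 9 genes, the list of 46 related genes, the markers and the tests were chosen with earlier results of these data known. Named are the 9 genes, the 6 largest called rises and falls of enrichment among the related genes, and the 5 genes nearest to SLC1A5. Some genes that the rule or the marker list would name are not reported here. The alternatives were other scalings (the 75th percentile over all probes, the median, quantile normalization, the spike-in probes, the median gene), normexp on the median spot and background signals with an offset of 50 before quantile normalization, the authors' values, other filters, averaging the probes of a gene, a variance trend on intensity, a replicate block and each array left out. With 1 slide and 1 scan, no slide block was fitted.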

Additional observations from a re-analysis of the deposited data

Results flagged for a closer look

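The RIP/input ratio differed between miR-634 and miR-NC cells by limma's test of the difference itself for 7 of the 9 genes. Of all measured genes, 28.1% were called higher and 43.2% lower. Most genes were thus called, and the count by itself does not set the 9 genes apart. On the log2 scale, the difference was 2.83 for GOT1, 2.82 for SLC1A5, 2.10 for GFPT1, 1.58 for OAT, 1.19 for GLUL, 1.08 for GPT2 and -0.53 for GOT2. The value of GOT2 turned to 0.56 with scaling on the spike-in probes, and the other 6 kept their direction and their call in each alternative.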

How the results depend on the processing

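Across 20 alternatives, the count of genes whose enrichment rose was 6, except 7 when centered on the median gene and 8 under spike-in scaling. The count of those lower than SLC1A5 was 7, which a scaling that shifts a whole array could not change. Scaling on the spike-in probes changed most. It turned the log2 change of enrichment of ASNS to 1.004 and of GOT2 to 0.56, the RIP change of GOT2 to 0.39, RIP over input in miR-NC cells of GFPT1 to -2.46 and of GLUD1 to -2.38, and that in miR-634 cells of GLUD1 to -1.24, of GPT2 to -0.64 and of OAT to -0.40. With it, 0 genes (and 0 probes) were lower in enrichment, 0 lower in the RIP, 0 higher in the input, 0 above the input in miR-NC cells, and 3 above but 5 below it in miR-634 cells. Over all genes it called 7220 higher and 179 lower in enrichment, in place of 3079 and 4730, and centering on the median gene called 3844 and 3349. The count above the input in miR-NC cells, 1 as reported, was 2 with median scaling, quantile normalization or centering, and 0 with the authors' values or the percentile taken over all probes. The count with a lower input, 1 as reported, was 2 with quantile normalization, with normexp and with an intensity trend, and 0 with no filter, which also gave 0 with a higher input. With each array left out in turn, counts were 6 to 6 higher and 1 to 1 lower for enrichment, 0 to 1 for a higher and 0 to 1 for a lower input, 6 to 8 higher and 1 to 1 lower for the RIP, 0 to 1 above and 7 to 7 below the input in miR-NC cells, and 6 to 6 above and 2 to 3 below it in miR-634 cells. Deviations of arrays of the same number had low correlations (r from -0.04 to 0.08). The highest were between input and RIP of the same cells (0.07 for miR-NC and 0.08 for miR-634). Whether arrays of the same number came from the same lysate was not tested. With the number as a replicate block, 6 genes were higher and 1 lower in enrichment, and 1083 genes were higher and 1178 lower in the input over all genes, in place of 1273 and 1329. Signal over background limits the dim GFPT1 probe.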
